A study of Mus musculus with 9 samples.

Results

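The 10 genes described here encode the kinase core of the Hippo pathway and the proteins that act directly upstream of it. They are Stk3, Stk4, Sav1, Lats1, Lats2, Mob1a, Mob1b, Nf2, Wwc1 and Amot, chosen by name from the 38293 genes of the count table. All 10 were found in the table, and all 10 were among the 15318 genes that passed the filter on low counts. The samples were ventricles of mice at postnatal day 7, measured by RNA-seq of mRNA. Both groups carried the floxed allele Arid1a f/f. The 5 control libraries came from littermates labelled Arid1a f/f control, and the 4 cKO libraries came from aMHC-Cre;Arid1a f/f mice, in which the cardiomyocyte promoter of the alpha myosin heavy chain gene drives the Cre recombinase that removes the floxed part of Arid1a. The tissue was whole ventricle, so cells without Cre contributed RNA to both groups. Fewer cells of a type and less RNA per cell cannot be told apart in such libraries.

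The Hippo pathway is a kinase cascade that restrains organ growth. The kinases MST2 (Stk3) and MST1 (Stk4), bound to the scaffold Salvador (Sav1), phosphorylate the kinases LATS1 and LATS2 and their activating partners MOB1A and MOB1B, and LATS then phosphorylates the coactivators YAP and TAZ, which keeps them out of the nucleus and away from TEAD transcription factors. Merlin (Nf2), KIBRA (Wwc1) and angiomotin (Amot) bring the kinases to the membrane and to cell junctions, and angiomotin can also bind YAP itself. In the mouse heart, deletion of Sav1 or of the LATS kinases is known to prolong cardiomyocyte proliferation. The study asked how cardiomyocyte Arid1a affects the maturation of the heart and examined YAP activity in the same mutants. The comparison below covers the mRNA levels of the genes upstream of YAP, which say nothing of phosphorylation.

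Levels are given in CPM, the count of a gene relative to the TMM-scaled library total, and library totals ranged from 31011055 to 40073801 counts. Arid1a, which encodes a subunit of the chromatin remodeler SWI/SNF, was checked first. In the 5 controls its level was 139.8 ± 8.84 CPM (SD), and in the 4 cKO libraries it was 106.4 ± 5.44 CPM (SD), with no overlap between the groups. Its log2 fold change was -0.39 (SE 0.06, edgeR adjusted p = 0.00132). The counts cover the whole gene, so the share of these reads that came from unrecombined alleles is not known. The cardiomyocyte markers of the ventricle were abundant in all libraries. Their summed level was 45890 to 54050 CPM in controls and 40960 to 44910 CPM in cKO, with 1 of 6 lower beside 8.03% of all genes (Myl2, log2 fold change -0.43), and that of the 6 fibroblast markers was 2797 to 3539 CPM in controls and 3638 to 4324 CPM in cKO, with 3 of 6 higher beside 8.25% (Col1a1, Col1a2 and Tcf21). In 8 further marker lists, 3 of 40 tested genes passed, beside 16.3% of all genes. The atrial gene Myl7 was higher (1 of 3 atrial markers). The endothelial gene Tek (1 of 6) and the epicardial gene Wt1 (1 of 5) were lower. Log2 fold changes were above 0 in 2 of 3 atrial, 1 of 6 endothelial and 0 of 5 epicardial markers, and the endothelial median was -0.04. The part of these cell type markers in the results below was not tested. The libraries also fell into sets that the labels do not name and that were unevenly spread over the groups. The ribosomal protein gene copy Rps3a3 was at 0.345 to 0.521 CPM in controls 1 and 2 and cKO 1, 2 and 3, and at 99.7 to 112 CPM in controls 3, 4 and 5 and cKO 4, so the low set held 2 of 5 controls and 3 of 4 cKO libraries. Rps3a1 went the other way, at 253 to 276 CPM in the Rps3a3-low libraries and 70.8 to 75.7 CPM in the Rps3a3-high ones. What separates the sets was not tested. Xist, which is expressed from the inactive X chromosome of females, was high in controls 2 and 3 and cKO 3 and 4, so both groups held both sexes.

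6 of the 10 genes come in pairs of close relatives, and a shift between members of a pair can only be read if their reads can be told apart. The longest stretch of identical coding sequence in each pair is printed here in lower case, 5′ to 3′, from GENCODE M21 transcripts on GRCm38. It bounds exact matches between the coding sequences, and does not cover untranslated parts or reads aligned with mismatches.
Stk4 and Stk3: tggattgttatggagtactgtgg
Lats2 and Lats1: tgtactttgtgatggactacat
Mob1b and Mob1a: attaagtgttctgcaccaaa
These stretches are 23, 22 and 20 bases long, all shorter than the 75-base reads. Over whole transcripts, 0% of the 75-base windows of Stk4, Lats1 and Mob1a also occur in another gene, which again covers exact matches only. The relatives outside the 10 genes that were also compared, Wwc2 with Wwc1, Amotl1 with Amot and Amotl2 with Amot, share at most 18, 20 and 14 bases. Other genes were a larger source of shared sequence. Of the 75-base windows in Lats2 transcripts, 40.5% also occur on the same strand in Gm49361, an annotated gene that covers part of Lats2. Gm49361 is not among the features listed in the table used here, and whether reads from it are in the Lats2 count was not tested. In Sav1, 24.4% of windows lie in the stretch where it overlaps Atl1 on the opposite strand. Atl1 was at 6.23 to 9.93 CPM, against 49.0 to 71.8 CPM for Sav1. Stk4 overlaps Tomm34 on the opposite strand at its start, but 0% of its windows are shared with another gene on either strand. The strand setting of the counting is not given in the sources used here, so how reads from the stretch that Sav1 shares with Atl1 were counted is not known.

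In control ventricles the genes spanned a wide range of levels per length of transcript. Nf2 was the highest at 26.3 ± 1.07 RPKM (SD, n = 5), followed by Mob1a at 19.3 ± 1.55 RPKM. Sav1 at 12.8 ± 1.11 RPKM and Lats2 at 10.9 ± 0.375 RPKM came next, and their ranges over the controls overlapped. Mob1b at 7.37 ± 0.818 RPKM, Lats1 at 7.00 ± 0.777 RPKM and Stk4 at 6.19 ± 0.686 RPKM formed a group of neighbours whose ranges also overlapped. Below them, with no overlap between neighbours, lay Stk3 at 4.45 ± 0.574 RPKM, Amot at 1.60 ± 0.235 RPKM and Wwc1 at 0.182 ± 0.0583 RPKM. Wwc1 rested on 16 to 59 counts per library, whereas the other 9 genes had at least 375 counts in every library. Within each pair, Lats2 exceeded Lats1, Mob1a exceeded Mob1b and Stk4 exceeded Stk3 on this scale.

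**Figure D1:**
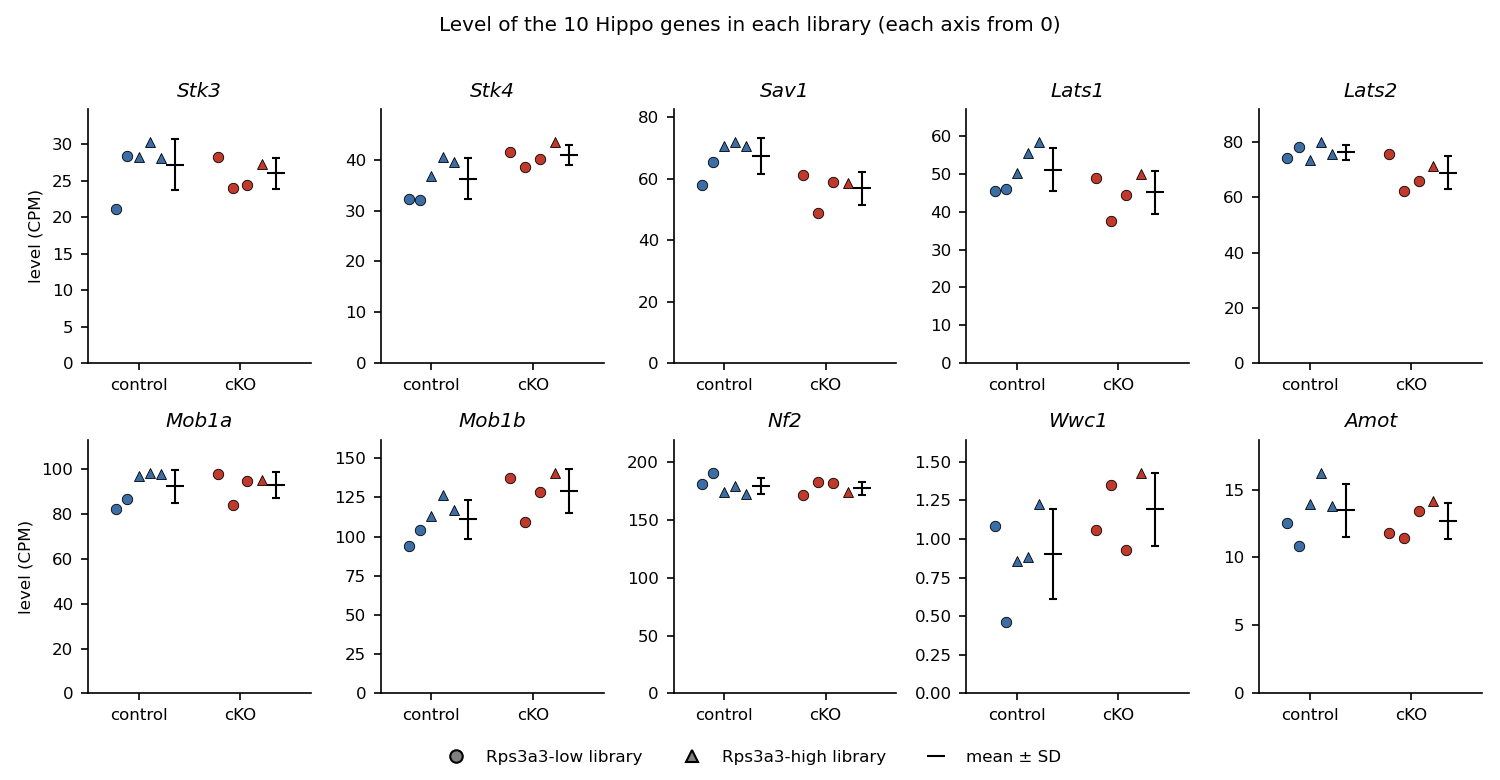
Level of each of the 10 genes in CPM (vertical axis from 0) in the 5 control and 4 cKO libraries; symbols mark the Rps3a3-low and Rps3a3-high libraries, and bars give the mean and SD of each group. The ranges of the groups overlap in all 10 panels, with Sav1 at 57.8 to 71.8 CPM in controls and 49.0 to 61.2 CPM in cKO.

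None of the 10 genes passed the test between cKO and control. At an adjusted p under 0.05, edgeR's quasi-likelihood test found 0 of 10, against 16.3% of all genes tested (8.25% higher and 8.03% lower in cKO), and 0 of 10 also had a change over 1.5-fold, against 6.72%. At an unadjusted p under 0.05 there were 2 of 10, Sav1 and Mob1b, against 29.7%, and the test of DESeq2 passed 1 of 10, Sav1. In all 10 genes the ranges of the groups overlapped, whereas 16.7% of genes tested had groups that did not overlap. Log2 fold changes were above 0 in 4 genes and below 0 in 6, and their median was -0.04, beside 0.01 over all genes. The intervals of these estimates were narrow. For 9 of 10 genes, all but Wwc1, the 95% interval of the fold change lay within 1.5-fold in either direction, which was true of 62.1% of all genes tested.

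The upstream kinases and their scaffold differed among themselves in the direction of the estimate. Stk3 lies on chromosome 15 (ENSMUSG00000022329, 34875496 to 35178921, GRCm38, the assembly of all positions here). It was at 21.2, 28.4, 28.3, 30.3 and 28.1 CPM in controls 1 to 5 and at 28.3, 24.1, 24.4 and 27.3 CPM in cKO 1 to 4. The low control 1 was the only value that stood apart, and the other 8 libraries ranged from 24.1 to 30.3 CPM. The log2 fold change of Stk3 was -0.07 (SE 0.10, 95% interval -0.29 to 0.16, edgeR adjusted p = 0.717). Stk4, on chromosome 2 (ENSMUSG00000018209, 164070322 to 164155524), was at 32.2, 32.0, 36.9, 40.6 and 39.6 CPM in the controls and at 41.5, 38.6, 40.2 and 43.4 CPM in cKO. All 4 cKO libraries lay above controls 1 to 3, and controls 4 and 5 lay within their range. Its log2 fold change was 0.17 (SE 0.08, 95% interval -0.01 to 0.36, edgeR adjusted p = 0.196). Sav1, on chromosome 12 (ENSMUSG00000021067, 69965012 to 69987002), was at 57.8, 65.6, 70.6, 71.8 and 70.8 CPM in the controls and at 61.2, 49.0, 58.8 and 58.7 CPM in cKO. All 4 cKO libraries lay below controls 2 to 5, and control 1 alone lay among them. Sav1 had the smallest p of the 10 genes, with a log2 fold change of -0.24 (SE 0.09, 95% interval -0.43 to -0.06, edgeR adjusted p = 0.0785). Without control 1 it passed (log2 fold change -0.29, edgeR adjusted p = 0.0278), as did 16.4% of all genes tested in that fit. It also passed with DESeq2 (-0.24, adjusted p = 0.0445), where 20.5% of genes did so.

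The LATS kinases, which phosphorylate YAP and TAZ, had estimates below 0 that did not pass. Lats1, on chromosome 10 (ENSMUSG00000040021, 7681214 to 7716460), was at 45.5, 46.1, 50.2, 55.4 and 58.3 CPM in the controls and at 48.9, 37.5, 44.3 and 50.0 CPM in cKO. cKO 2 and 3 lay below all controls, and cKO 1 and 4 lay among them. The log2 fold change of Lats1 was -0.18 (SE 0.10, 95% interval -0.40 to 0.05, edgeR adjusted p = 0.274). It was -0.10 without cKO 2, -0.09 with the Rps3a3 library set as a term and -0.07 in the Rps3a3-low libraries alone. Lats2, on chromosome 14 (ENSMUSG00000021959, 57689662 to 57758388), was at 74.4, 78.0, 73.5, 79.8 and 75.5 CPM in the controls and at 75.7, 62.2, 66.0 and 71.4 CPM in cKO. cKO 2, 3 and 4 lay below all controls and cKO 1 lay among them. Its log2 fold change was -0.15 (SE 0.07, 95% interval -0.30 to 0.00, edgeR adjusted p = 0.17).

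Of the MOB1 coactivators of LATS, Mob1a, on chromosome 6 (ENSMUSG00000043131, 83326016 to 83343776), was at 82.3, 86.8, 96.9, 98.5 and 97.9 CPM in the controls and at 97.7, 84.2, 94.9 and 95.3 CPM in cKO. The cKO values lay inside the range of the controls. The log2 fold change of Mob1a was 0.01 (SE 0.07, 95% interval -0.15 to 0.17, edgeR adjusted p = 0.949). Mob1b, on chromosome 5 (ENSMUSG00000006262, 88720855 to 88764220), was at 94.2, 104, 113, 126.3 and 117 CPM in the controls and at 137, 109, 128 and 141 CPM in cKO. cKO 1, 3 and 4 lay above all controls, and cKO 2 lay between controls 2 and 3. Its log2 fold change was 0.22 (SE 0.09, 95% interval 0.01 to 0.42, edgeR adjusted p = 0.147).

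The regulators at the membrane showed no called difference either. Nf2, on chromosome 11 (ENSMUSG00000009073, 4765845 to 4849536), was at 181, 191, 174, 179 and 172 CPM in the controls and at 171, 183, 182 and 174 CPM in cKO. The lowest cKO value was just under the lowest control and the others lay inside the control range. Its interval was the narrowest of the 10 genes, with a log2 fold change of -0.02 (SE 0.05, 95% interval -0.13 to 0.10, edgeR adjusted p = 0.882). Amot, on the X chromosome (ENSMUSG00000041688, 145446425 to 145505181), was at 12.5, 10.9, 13.9, 16.2 and 13.8 CPM in the controls and at 11.8, 11.4, 13.4 and 14.2 CPM in cKO. The cKO range lay inside the control range, and the log2 fold change was -0.08 (SE 0.12, 95% interval -0.35 to 0.18, edgeR adjusted p = 0.689). Wwc1, also on chromosome 11 (ENSMUSG00000018849, 35838400 to 35980527), was at 1.08, 0.463, 0.859, 0.881 and 1.23 CPM in the controls and at 1.06, 1.35, 0.927 and 1.43 CPM in cKO. The groups overlapped and the log2 fold change was 0.41 (SE 0.28, 95% interval -0.20 to 1.01, edgeR adjusted p = 0.362), and the interval of its fold change, from 0.870 to 2.02, was too wide to say whether Wwc1 changed over 1.5-fold. Without control 2 the log2 fold change was 0.24. With Xist level as a term, 0 of 10 genes passed in edgeR, against 13.9% of all genes, and 1 of 10 had an unadjusted p under 0.05, against 28.0%. In the fit with an interaction term, the lowest adjusted p of a genotype effect that differed with Xist level was 0.999 among them, and 1 of all 15318 genes (0.00653%) passed.

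Settings that account for differences among the libraries changed the calls of 3 genes. With the Rps3a3 library set as a term in the edgeR fit, Mob1b passed at a log2 fold change of 0.30 (adjusted p = 0.0152) and Stk4 at 0.26 (adjusted p = 0.0161), while Sav1 did not (-0.19, adjusted p = 0.131). In that fit 19.9% of all genes passed, so 2 of 10 was near the background. With the trends of each library on GC content and transcript length removed, a setting chosen after seeing the data, Mob1b passed at 0.31 (adjusted p = 0.000238), Sav1 at -0.20 (adjusted p = 0.01) and Stk4 at 0.20 (adjusted p = 0.0418) in edgeR, against 23.5% of all genes. Within the Rps3a3-low libraries alone, the difference in mean log2 CPM between cKO and control was 0.33 for Mob1b, 0.31 for Stk4 and -0.14 for Sav1, and within the Rps3a3-high libraries, where cKO 4 is the only cKO library, it was 0.24, 0.15 and -0.27. The directions were the same in both sets. None of these fits carried a member other than Wwc1 beyond 1.5-fold at either end of its 95% interval.

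**Figure D2:**
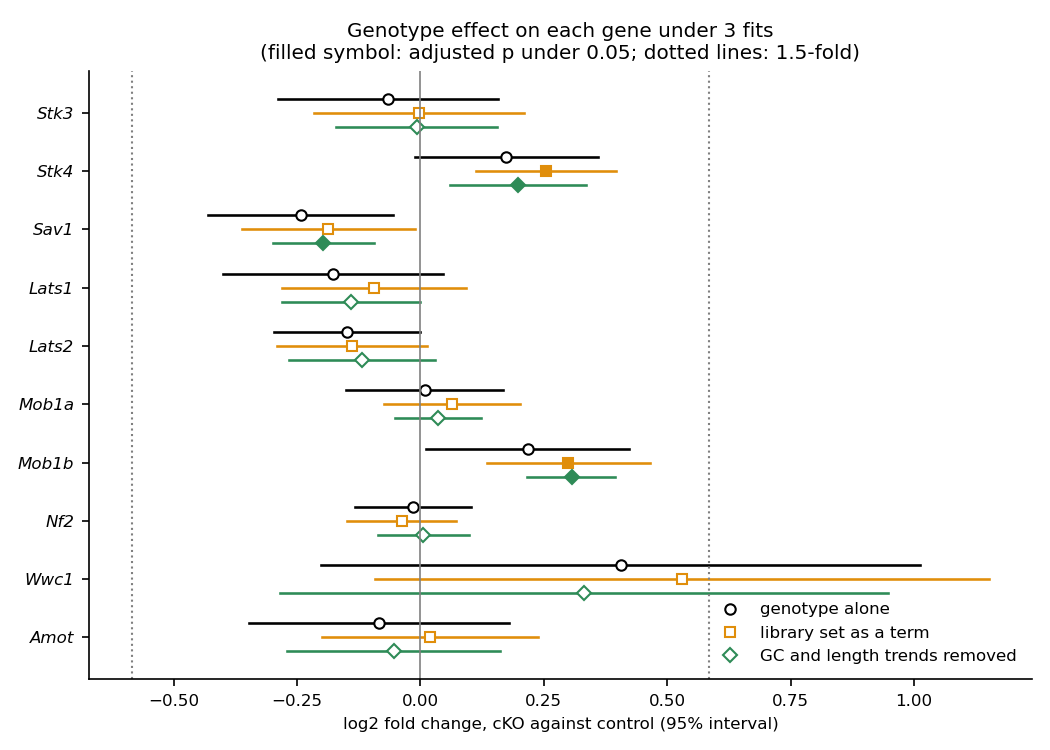
Log2 fold change of each gene, cKO against control (horizontal axis, with 95% intervals), in 3 edgeR fits: genotype alone, with the Rps3a3 library set as a term, and with GC and length trends removed; filled symbols passed an adjusted p of 0.05 and dotted lines mark 1.5-fold. Only Mob1b, Stk4 and Sav1 have filled symbols, and only the intervals of Wwc1 cross a dotted line.

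Much of the spread within each group was shared by most of the 10 genes. Among the controls, the lowest value of a gene fell in control 1 for 5 of 10 genes and in control 2 for 3, and the highest value fell in control 4 for 7 of 10. Among the cKO libraries, cKO 2 was the lowest for 8 of 10 genes. The same libraries stood at the ends of a scale of base composition, computed for each library as the median log2 deviation of the genes richest in GC minus that of the poorest. This index was 0.24 in control 1 and 0.11 in control 2 but -0.33 in control 4, and it was 0.46 in cKO 2 against -0.11 to 0.02 in the other cKO libraries. Controls 3 and 5 were at -0.181 and -0.175. Among the controls, the Rps3a3-low libraries thus had an index above 0 and the Rps3a3-high ones an index below 0. Set and index cannot be told apart there. In cKO, the Rps3a3-high cKO 4, at -0.014, lay within the range of the others. The source of the shared spread was not tested. Transcripts of several members are poor in GC: the longest Mob1b transcript has 37.9% GC, Stk3 38.4%, Sav1 40% and Lats1 43.0%, beside a median of 49.7% over the genes tested. Lats2 at 52.2% GC, Nf2 at 53.5% and Wwc1 at 57.1% lie above it. Among the cKO libraries, Lats2 was lowest in cKO 2, as were all members below the median, while Nf2 and Wwc1 were not. The Rps3a3 set itself, tested with genotype in the model, gave 0 of 10 members at an adjusted p under 0.05 in edgeR, against 4.81% of all genes, and 5 of 10 at an unadjusted p under 0.05, against 24.5%.

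**Figure D3:**
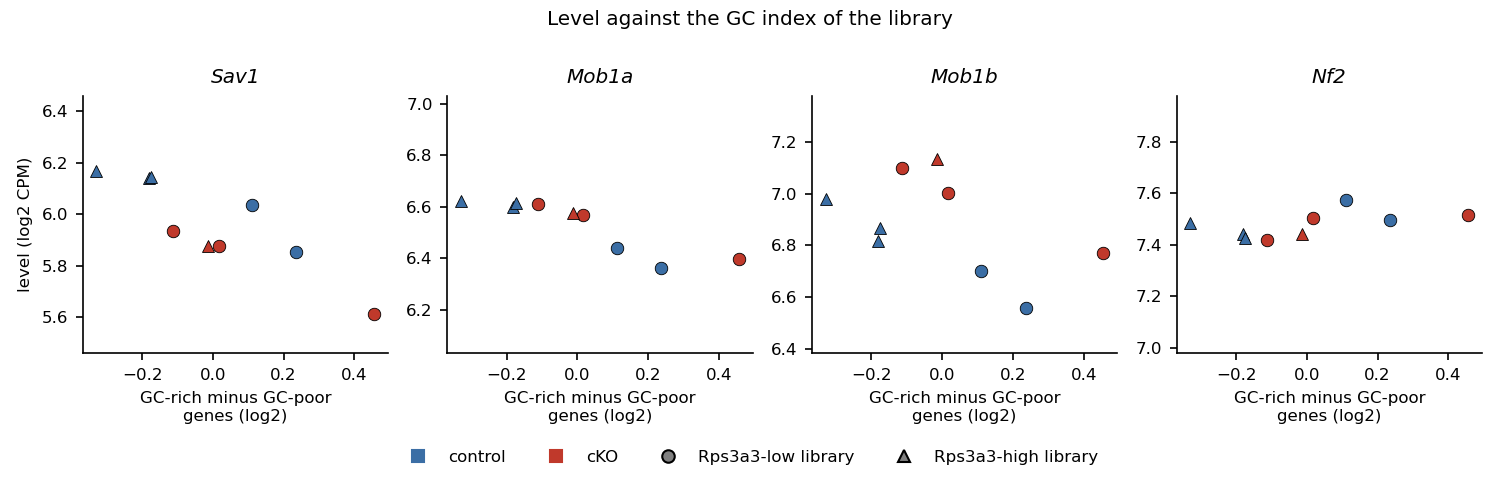
Level (vertical axis, log2 CPM, each axis of equal span) of Sav1, Mob1a, Mob1b and Nf2 against the GC index of each library (horizontal axis, log2), with color for the group and symbol for the Rps3a3 set. Sav1, Mob1a and Mob1b are lower in libraries with a high index, such as cKO 2 at 0.46, while Nf2 is not, and cKO 1, 3 and 4 lie above the controls for Mob1b.

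Ratios between relatives within a library do not depend on library scaling, and 6 of them were tested by exact permutation (two-sided, over all assignments of 5 and 4 labels), adjusted over the 6 by the Benjamini-Hochberg method. Relatives differ in GC, with 37.9% in Mob1b against 43.45% in Mob1a, 46.85% in Stk4 against 38.4% in Stk3 and 52.2% in Lats2 against 43.0% in Lats1. The part of the base composition trends in the ratios was not tested. The ratio of Mob1b to Mob1a counts was 1.14, 1.20, 1.17, 1.28 and 1.19 in controls 1 to 5 and 1.40, 1.30, 1.35 and 1.48 in cKO 1 to 4. Every cKO library lay above every control. The log2 ratio differed by 0.21 (exact p = 0.0159, adjusted p = 0.0952). Permuted within the Rps3a3 sets, the difference was 0.24 (exact p = 0.025, the smallest those 40 assignments can give, unadjusted). The ratio of Stk4 to Stk3 was 1.52, 1.13, 1.30, 1.34 and 1.41 in the controls and 1.47, 1.60, 1.64 and 1.59 in cKO. Only control 1, in which Stk3 was low, reached into the cKO range. This log2 ratio differed by 0.24 (exact p = 0.0317, adjusted p = 0.0952), and by 0.25 within the sets (exact p = 0.05, unadjusted). Neither of these ratios passed after adjustment.

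The other 4 ratios differed less, relative to their spread. That of Lats2 to Lats1 was 1.64, 1.69, 1.46, 1.44 and 1.29 in the controls and 1.55, 1.66, 1.49 and 1.43 in cKO, a log2 difference of 0.03 (exact p = 0.738, adjusted p = 0.841). The cKO values lay inside the control range. Among the relatives of the membrane regulators, the ratio of Wwc2 to Wwc1 counts ranged from 79.1 to 175 over the 9 libraries, with a log2 difference of -0.14 (exact p = 0.698, adjusted p = 0.841). That of Amotl1 to Amot ranged from 8.80 to 11.4, with a log2 difference of 0.02 (exact p = 0.841, adjusted p = 0.841). That of Amotl2 to Amot ranged from 4.73 to 9.33, with a log2 difference of 0.29 (exact p = 0.183, adjusted p = 0.365), which was 0.12 within the library sets and 0.175 without control 4. Per transcript length too, Wwc1 and Amot were the scarcer forms in their families: controls held 6.57 ± 0.496 RPKM of Wwc2 (SD, n = 5), 13.6 ± 1.11 RPKM of Amotl1 and 13.8 ± 1.32 RPKM of Amotl2. Mean levels of Amotl1 were 137 ± 11.2 CPM (SD) over the 5 controls and 132 ± 7.17 CPM over the 4 cKO libraries. Those of Amotl2 were 86.5 ± 8.31 and 99.8 ± 7.78 CPM.

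**Figure D4:**
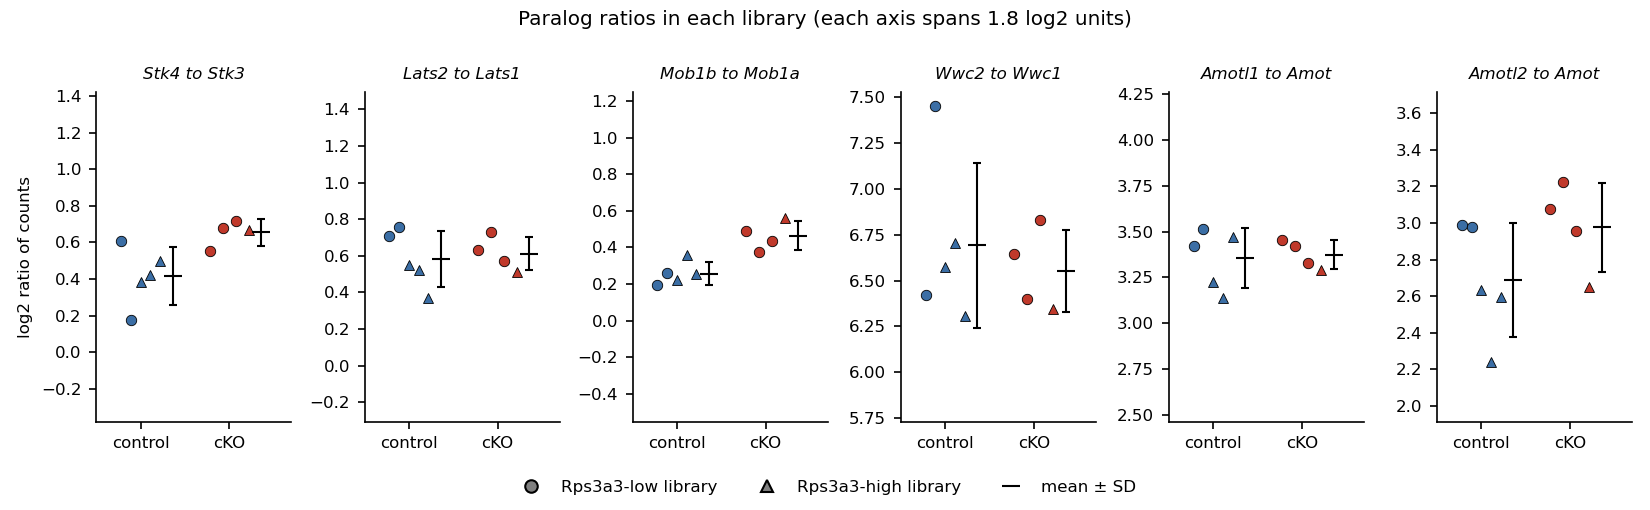
Log2 ratio of counts of 6 pairs of related genes in each library (vertical axis, each spanning 1.8 log2 units), for controls and cKO, with symbols for the Rps3a3 set and bars for mean and SD. The groups are separate only for Mob1b to Mob1a, where the log2 mean was 0.26 in controls and 0.47 in cKO.

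The rest of the upstream pathway was read from a list of 56 genes in 7 roles, of which 55 were in the table and 53 were tested. Of these, 5 were higher and 4 were lower in cKO at an adjusted p under 0.05 in edgeR (16.98%, beside 16.3% of all genes), and the median log2 fold change was 0.02. Of the 9, 8 had groups that did not overlap (8 of the 53 tested, beside 16.7% of all genes) and 2, Strn and Crb3, changed over 1.5-fold (2 of 53, beside 6.72% of all genes). Strn lay at the threshold, with a fold change of 1.503, and was over it in 15 of 20 alternatives.

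Of 12 kinases that act like or beside MST and LATS, 2 passed (16.67%, beside 16.3% of all genes), and both were lower. Tnik, a kinase of the MAP4K group, was at 34.8, 35.9, 39.8, 44.0 and 45.2 CPM in the controls and at 29.4, 25.4, 28.8 and 30.5 CPM in cKO, with a log2 fold change of -0.49 (SE 0.09, edgeR adjusted p = 0.00398). Map4k3, of the same group, was at 83.3 to 97.3 CPM in the controls and 65.5 to 79.7 CPM in cKO, with a log2 fold change of -0.35 (SE 0.07, edgeR adjusted p = 0.00706). Both were lower in every cKO library than in every control.

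Of 13 genes of STRIPAK, the phosphatase complex that dephosphorylates the MST kinases, 1 rose (7.69%, beside 8.25% of all genes). Strn, which encodes the scaffold striatin, was at 80.0, 84.1, 100.3, 103 and 94.4 CPM in the controls and at 132, 129, 124 and 171 CPM in cKO. All cKO libraries lay above all controls, with cKO 4 the highest. The log2 fold change of Strn was 0.59 (SE 0.10, edgeR adjusted p = 0.00261), while its relatives Strn3 and Strn4 had values of -0.19 and 0.04 and did not pass (edgeR adjusted p = 0.204 and 0.811). Of the 3 LIM proteins that bind and inhibit LATS, 1 rose, beside 8.25% of all genes, and a list of 3 is too short to set against that share. Limd1 was at 124, 125, 123, 119.5 and 125 CPM in the controls and at 158, 156, 166 and 161 CPM in cKO. The spread within each group was small next to the gap between them, and the log2 fold change was 0.38 (SE 0.05, edgeR adjusted p = 0.000244). The relatives of Limd1 did not pass, with log2 fold changes of 0.17 for Ajuba and -0.32 for Wtip (edgeR adjusted p = 0.235 and 0.0887).

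Among the 5 relatives of the membrane scaffolds, Wwc2, a relative of KIBRA, rose from 90.6 ± 6.83 CPM (SD over 5 controls) to 112 ± 5.22 CPM (SD over 4 cKO libraries). Its log2 fold change was 0.30 (SE 0.07, edgeR adjusted p = 0.00913). Of its 75-base windows, 6.72% are shared with claudin genes on the opposite strand. Fat1, a giant cadherin and 1 of 6 tested Fat and Dachsous genes, rose from 91.4 ± 8.86 to 122 ± 18.8 CPM (SD), by 0.42 on the log2 scale (SE 0.10, edgeR adjusted p = 0.0168). Dchs2, of the same family, is not analysed here. Of 9 tested genes of apicobasal polarity, Dlg1, a scaffold at cell junctions, fell by 0.22 on the log2 scale (SE 0.07, edgeR adjusted p = 0.0475). Crb3, a short Crumbs protein, rose by 1.17 (SE 0.32, edgeR adjusted p = 0.0258), but only from 0.157 to 0.332 CPM in the controls to 0.435 to 0.653 CPM in cKO. Of 5 tested RASSF adaptors, which bind the MST kinases, Rassf3 fell by 0.18 (SE 0.05, edgeR adjusted p = 0.0407). In the roles of this paragraph, 20%, 16.67%, 22.22% and 20% of tested genes passed, in the order given, beside 16.3% of all genes. Strn and Limd1 passed under all 20 alternatives tried, and Tnik, Map4k3 and Wwc2 under all but the fit on the Rps3a3-low libraries. Fat1 passed in 17 of 20, Crb3 in 12 of 19, Rassf3 in 9 of 20 and Dlg1 in 6 of 20.

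**Figure D5:**
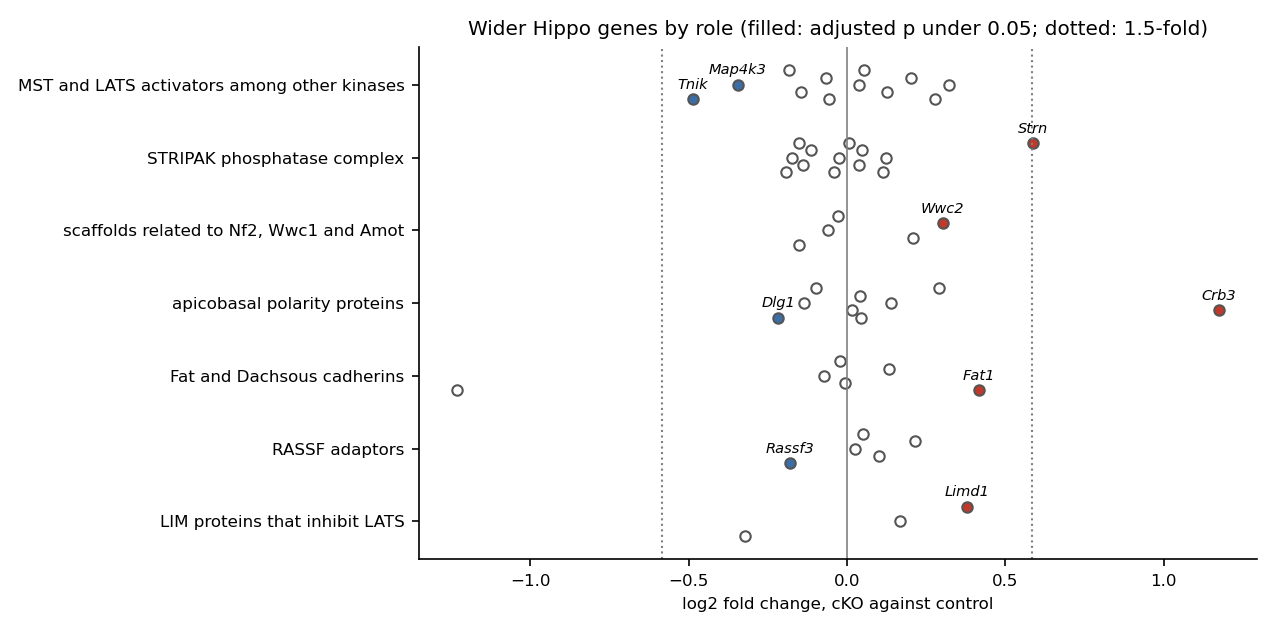
Log2 fold change (horizontal axis, cKO against control) of the 53 tested genes of the wider Hippo list, in rows by role; filled points passed an adjusted p of 0.05 in edgeR (red higher, blue lower in cKO) and dotted lines mark 1.5-fold. The 9 filled points are spread over all 7 roles, and of these Strn and Crb3 lie beyond a dotted line. The open point of Fat2, at -1.23 (edgeR adjusted p = 0.122), lies beyond the other.

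Several Hippo components, among them Lats2, Nf2 and Amotl2, are known as targets of YAP and TEAD, so the promoters of the members were searched for the core of the TEAD motif, GGAATG, on both strands (CATTCC). The windows were the 300 bases around annotated starts in RefSeq on GRCm38.p6, most of them upstream, and 16.6% of all 27025 genes hold the motif in at least 1 window. Of the 9 members with a window (Stk3 was not among them), 3 hold it: Lats2 at position 5, Sav1 at -106 and Mob1a at -209, counted from 1 at the start and negative before it. Of the 3 relatives in the ratios, Wwc2 holds it 3 times, at -203, -94 and -79, Amotl2 holds it at -65, and the Amotl1 window has no match. The 30 bases around each match are printed on the strand of the gene, with the motif in capitals, because they show which genes carry it and in what setting, and the last pair of Wwc2 windows overlap.
Lats2, chr14:57746102-57746131, minus strand: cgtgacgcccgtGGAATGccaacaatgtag
Sav1, chr12:69987091-69987120, minus strand: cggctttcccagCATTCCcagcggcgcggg
Mob1a, chr6:83325818-83325847, plus strand: tggccagaatagCATTCCtttaggagaaga
Amotl2, chr9:102717727-102717756, plus strand: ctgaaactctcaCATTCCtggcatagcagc
Wwc2 at -203, chr8:47990730-47990759, minus strand: gagcgagctgtgCATTCCtccgccctaccg
Wwc2 at -94, chr8:47990621-47990650, minus strand: gggttaagctcaGGAATGtggcggcgagga
Wwc2 at -79, chr8:47990606-47990635, minus strand: atgtggcggcgaGGAATGtgcatgcagatg
The 3 members with a match had log2 fold changes of -0.15, -0.24 and 0.01, none of which passed. Amotl2 had 0.21 (edgeR adjusted p = 0.108) and did not pass either, and Wwc2, with 0.30 (edgeR adjusted p = 0.00913), did. A match of these letters is a description of the window and not a binding site.

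The genes whose levels followed Sav1 most closely over the 9 libraries, after the mean of each group was subtracted, were Prkacb, a catalytic subunit of protein kinase A (Pearson r = 0.990), Zfp266, a zinc finger gene (r = 0.988), and Zdhhc17, a palmitoyltransferase (r = 0.986). They were the top 3 of 13335 genes with a mean of at least 1 CPM. The 9 points share the differences in base composition given above.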

How the data were processed

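The authors deposited raw read counts per gene (unit: counts) for ventricles of 5 control and 4 cKO mice, 1 column per library, with no normalization. The methods describe stranded TruSeq mRNA libraries, single-end 75-base reads and mapping to mm10, and the submitters' processing notes name STAR 2.4.2a and HTSeq 0.6.1. The annotation and strand setting of the counting are not given in the sources used here. Groups came from the sample titles. Per the methods RNA was taken from 4 controls, whereas a figure legend counts 5. Each of the 5 control titles was kept here. Of the table's identifiers, 36345 were named from GENCODE M21 (GRCm38, which mm10 denotes).

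In R 4.3.3, genes kept by filterByExpr (minimum count 10) entered edgeR 4.0.16 (TMM, robust quasi-likelihood F test, two-sided, genotype alone). The Benjamini-Hochberg adjustment ran over the 15318 genes tested. The thresholds (adjusted p 0.05, fold 1.5) follow the study, whose test was DESeq2. SE and 95% intervals were derived from the F statistic. RPKM divides CPM by exon length in kilobases. Log2 ratios used a pseudocount of 0.5 counts. The code was tested on simulated counts. Libraries of a group differed by more than sampling noise. The study counts them as separate hearts.

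The 10 genes and all lists were chosen with earlier results of these data known. The genes named are all members, the library checks, the relatives in the ratios, up to 3 passing genes per role of the wider list, passing cell type markers and the 3 most like Sav1. Strn3, Strn4, Ajuba, Wtip and Fat2 were added after their values were seen. Alternatives were DESeq2 1.42.0, other scalings (RLE, upper quartile, TMM leaving out the 10 top genes), other filters (none, mean of 1 CPM), replicate number as a block, Rps3a3 set (cut at 10 CPM) or Xist (cut at 100 CPM) as a term, Rps3a3-low libraries only, leaving out each library, other fold thresholds, a pseudocount of 5 and, added later, removal of GC and length trends.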

Additional observations from a re-analysis of the deposited data

Results flagged for a closer look

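Stk3 in control 1, at 21.2 CPM, lay apart from the other 4 controls, which were at 28.1 to 30.3 CPM: the gap to the nearest control was 0.790 of the whole range of the group on the log2 scale, above the critical value of Dixon's test for 5 samples. Control 1 was also the library that reached into the cKO range in the ratio of Stk4 to Stk3. In all, 32 groups of values were tested in this way, of which chance alone would flag about 1.6, and 1 was flagged. Without control 1, the log2 fold change of Stk3 was -0.14.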

How the results depend on the processing

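The count of members that passed was 1 (Sav1) with DESeq2, 2 (Mob1b and Stk4) with the library set as a term, 3 (Mob1b, Sav1 and Stk4) with GC and length trends removed, 0 to 1 when each library was left out, and 0 in the other fits, the replicate block included (3 there at an unadjusted p under 0.05, against 26.1% of all genes). The count of called genes was 1030, 620 in the Rps3a3-low libraries alone, 330 with glmTreat, 2493 with no fold threshold and 909 to 1171 when each library was left out. Of the wider list 9 passed, 3 (Fat2, Limd1 and Strn) in the Rps3a3-low libraries alone (beside 5.44% of all genes), 11 with the set as a term (19.9%), 13 with GC and length trends removed (23.5%) and 5 to 10 when each library was left out (12.3% to 16.9%), the lowest without cKO 4 (12.4%). Estimates near 0 changed sign: Stk3 was 0.05 and Amot 0.061 in the Rps3a3-low libraries, Amot 0.019 with the set as a term and Nf2 0.005 with GC trends removed. With each library left out, Mob1a ranged from -0.030 to 0.053 and Nf2 from -0.036 to 0.008. Stk3 and Amot kept their sign there, at -0.143 to -0.025 and -0.152 to -0.008. Of the ratios, Lats2 to Lats1 was -0.043 and Amotl1 to Amot -0.037 within the sets, and Lats2 to Lats1 was -0.024 in the replicate block. With each library left out they ranged from -0.024 to 0.073 and from -0.035 to 0.059, and Wwc2 to Wwc1 from -0.234 to 0.052, the last without control 2. The cause was not tested.

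The replicate numbers did not pair the libraries: same-numbered deviations correlated at 0.04, 0.05, 0.03 and 0.29, and each number had a higher correlation with another number. Wwc1, at 16 to 59 counts per library, and Crb3 rest on few counts; counting error was not separated from the spread between libraries. With 4 cKO libraries, 1 of them Rps3a3-high, effects within that set rest on a single cKO library.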
